A study of Homo sapiens with 4 samples.

Results

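The 10 genes described here encode the core of the human microRNA pathway: TARBP2, its paralog PRKRA, the nuclease DICER1, the Argonautes AGO1 to AGO4, the export receptor XPO5 and the Microprocessor genes DROSHA and DGCR8. They were taken from the authors' deposited table of comparisons by matching each sequence accession, without its version, to a RefSeq gene symbol. All 10 were found, with 13 transcript records, among 19468 named genes and 39745 records in all. The study knocked down TARBP2 in MDA-LM2 cells, a lung-metastatic derivative of the MDA-MB-231 breast cancer line, to learn which transcripts depend on it. Total RNA was taken 48 hours after Lipofectamine transfection and measured on 4 arrays of the Illumina expression BeadChip type. The siTARBP2 group had 2 arrays, each from a different siRNA against TARBP2, and the siControl group had 2 arrays from cells given a control siRNA. The series text calls the comparison cells mock-transfected, whereas the sample labels name a control siRNA. Both groups are 1 parental line, under the same transfection if the sample labels hold, and separate cultures are not stated for the 2 siControl arrays.

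A microRNA begins as a hairpin in a longer primary transcript. DROSHA, a nuclear ribonuclease, cuts the hairpin free with DGCR8, its double-stranded RNA-binding partner, and XPO5 carries it to the cytoplasm. DICER1 trims it to a short duplex, helped by TARBP2 or by PRKRA, both double-stranded RNA-binding proteins, and an Argonaute takes up 1 strand to find target mRNAs. AGO2 can cleave a target, and this activity also serves siRNAs such as those used here for the knockdown. Apart from Dicer, TARBP2 is known to bind structured mRNAs, and in metastatic breast cancer cells it was linked to their decay.

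Both records of TARBP2 stood far below 0, DICER1 stood lower in 1 of its records, and the other 8 genes lay close to 0. These values of the authors' deposited table are log fold changes of siTARBP2 over siControl, 1 value per record, with no array values, error or replicate number beside it. Their log base is not given in the sources used here, and they are read as log2. No test was possible for single genes: the probe tables carry no gene names, so the level of a named gene on each array was not analysed here.

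**Figure D1:**
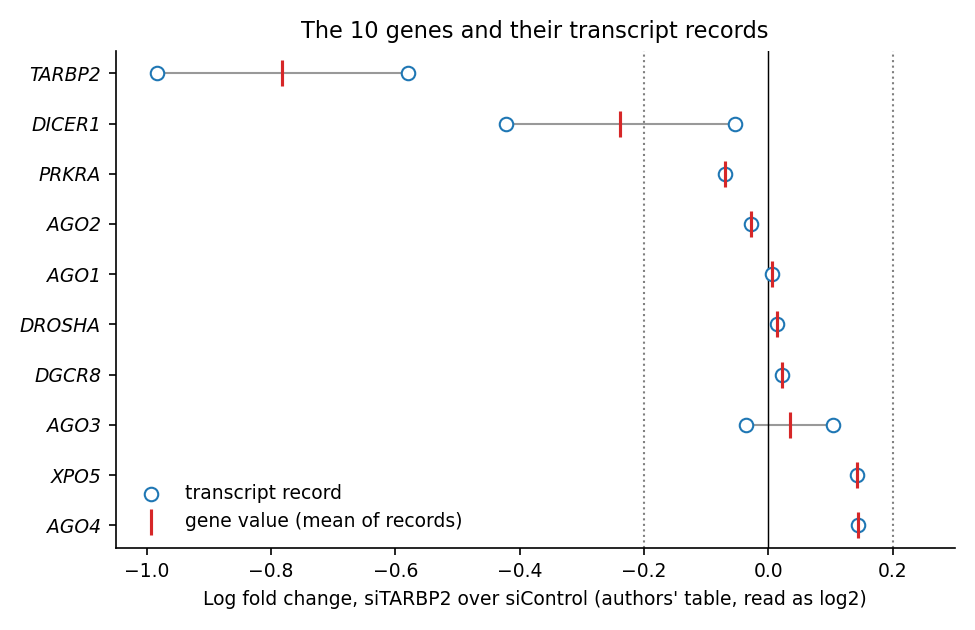
Log fold change of siTARBP2 over siControl (read as log2, from the authors' deposited table) for the 10 genes, ordered from lowest to highest gene value. Open circles are transcript records, red ticks are gene values (means over records), grey lines join the records of a gene, and dotted lines mark -0.2 and 0.2. TARBP2 at -0.78 and DICER1 at -0.24 lie left of the lower line and the other 8 genes lie between the lines.

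TARBP2 was the lowest of the 10 genes, at -0.78 in the authors' deposited table. On the log2 reading, that value is a ratio of 0.582 of siTARBP2 over siControl. The authors' deposited table placed its record NM_134323 at -0.98, and 62 of the 39745 records were lower. Its record NM_134324 stood at -0.58 in that table, with 559 records lower. Both records were thus lower in siTARBP2 cells, and they differed in size. In bulk RNA, a smaller share of cells carrying the transcript and less of it per cell cannot be told apart. By value, the named genes next below TARBP2 in the authors' deposited table were CAP2 and PKD2, both at -0.78, and next above were CHAMP1 and ST13, both at -0.78. These 4 genes lay within 0.0042 of TARBP2 in 1 value each, which says nothing of a shared pattern over samples.

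PRKRA, the paralog of TARBP2 that also binds Dicer and is known as an activator of the kinase PKR, stood at -0.07 in its 1 record of the authors' deposited table. That is 0.71 above TARBP2. Of all named genes, 25.5% lay lower than PRKRA in the authors' deposited table.

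DICER1, the ribonuclease that TARBP2 assists, was second lowest at -0.24 in the authors' deposited table. Its records stood apart. NM_030621 was at -0.42 and NM_177438 at -0.05 in that table, so only the first lay below -0.2. As a gene, DICER1 was 0.54 above TARBP2 and 0.17 below PRKRA, the next gene in the order.

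DICER1 mRNA is itself a known target of let-7 and of the miR-103 and miR-107 pair, which are products of its own pathway. DGCR8 mRNA is known to hold hairpins that Microprocessor cuts, and RefSeq places MIR3618 and MIR1306 within the DGCR8 gene. The mature sequences of these microRNAs are shown because they pair with, or are cut from, the mRNAs of members. They are from RefSeq (GRCh38.p14), 5′ to 3′, with the seed (bases 2 to 8) in capitals.
hsa-let-7a-5p: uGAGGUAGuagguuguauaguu
hsa-miR-103a-3p: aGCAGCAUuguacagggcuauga
hsa-miR-107: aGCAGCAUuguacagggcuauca
hsa-miR-3618: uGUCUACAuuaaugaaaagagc
hsa-miR-1306-5p: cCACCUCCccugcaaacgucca
hsa-miR-1306-3p: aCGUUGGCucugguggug
miR-103a-3p and miR-107 share their seed. let-7a-5p is encoded by MIRLET7A1 (chr9:94175962-94175983, plus strand), among other copies, miR-107 by MIR107 (chr10:89592756-89592778, minus strand), and miR-3618 lies at chr22:20085797-20085818 on the plus strand. In the authors' deposited table MIRLET7A1 stood at 0.03, MIRLET7A2 at 0.02 and MIR107 at -0.01. These 3 gene records lay nearer to 0 than either record of DICER1, but 554 of 561 microRNA genes in that table lay within 0.2 of 0. MIRLET7A3, MIR103A1, MIR103A2, MIR3618 and MIR1306 had no record there. Levels of mature microRNAs were not analysed here.

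The Argonautes, which hold the guide strand and recruit the silencing machinery, lay between -0.03 and 0.14 as genes. AGO2, the member with slicing activity, stood at -0.03 in the authors' deposited table. AGO1 was at 0.0060 in that table. The records of AGO3 in the authors' deposited table were at 0.10 for NM_024852 and at -0.04 for NM_177422, giving a gene value of 0.03. The authors' deposited table placed AGO4 highest of all 10 genes, at 0.14. Of the 4 Argonaute genes, 3 lay above 0 and 1 below, and none lay beyond 0.2 on either side in that table. AGO4, AGO1 and AGO3 follow one another on 1 chromosome in the annotation, and AGO2 lies elsewhere.

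The genes of the nuclear steps also lay inside 0.2 on both sides. DROSHA stood at 0.01 and DGCR8 at 0.02 in the authors' deposited table, 0.0078 apart. XPO5, the exporter of precursor hairpins, stood at 0.14 in that table. Its value was 0.0016 below that of AGO4, the highest of the 10.

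Over the set, 2 of 10 genes lay below -0.2, against 12.1% of all named genes, and none lay above 0.2, against 13.1%, in the authors' deposited table. The value of 0.2 bounds the authors' class of up-regulated records: the lowest record in the class was at 0.200012 and the highest outside it at 0.199963 in the authors' deposited table. One of the 2 low genes is the knockdown target itself, and without it 1 of 9 genes lay below -0.2, close to the share of all named genes. At a threshold of 0.1 in the authors' deposited table, AGO4 and XPO5 lay above, 2 of 10 against 22.3% of all named genes, and TARBP2 and DICER1 lay below -0.1, 2 of 10 against 20.2%. At 0.4 in that table none lay above, against 5.26%, and TARBP2 alone lay below, against 5.13%. The 10 genes had a median of 0.01 there, against 0.0024 over all named genes. Without TARBP2 and DICER1 the remaining 8 ran from -0.07 to 0.14 in that table, with 6 above 0 and 2 below. A typical named gene lay 0.078 from 0 in either direction in the authors' deposited table (median of the absolute values), so AGO1, AGO2, AGO3, PRKRA, DROSHA and DGCR8 were nearer to 0 than a typical gene.

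**Figure D2:**
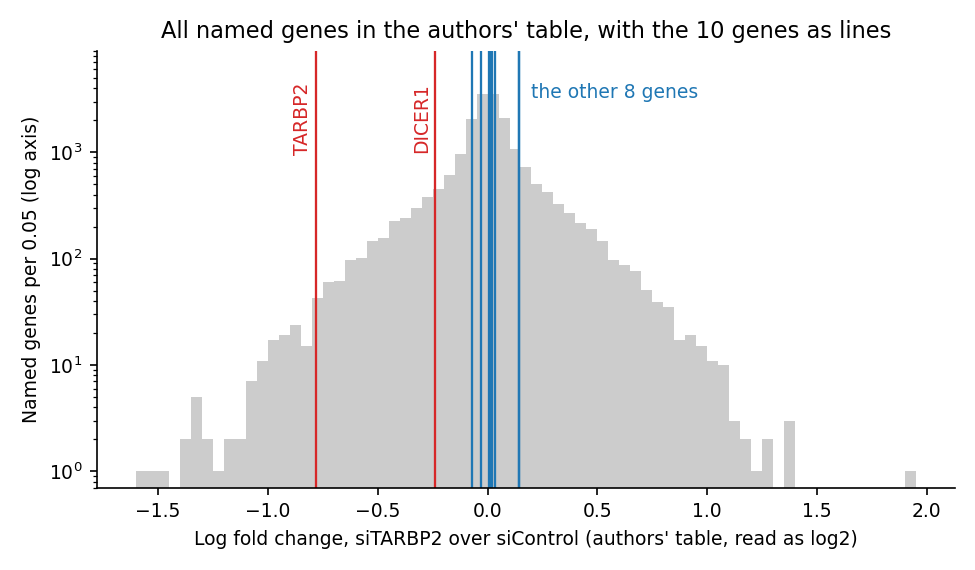
Number of named genes (log axis) by log fold change of siTARBP2 over siControl (read as log2, from the authors' deposited table), in steps of 0.05, with a line at each of the 10 genes. TARBP2 at -0.78 stands in the lower tail, DICER1 at -0.24 on its shoulder, and the other 8 genes, from -0.07 to 0.14, in the centre.

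In the absence of array values, the spread between records of 1 gene gave a scale for these differences. In the authors' deposited table, 2131 genes had exactly 2 records, and the median range between the 2 was 0.118. The records of TARBP2 were 0.41 apart in that table, a range matched or passed by 11.9% of the 2-record genes. Those of DICER1 were 0.37 apart in the authors' deposited table (14.5% of 2-record genes at least as wide). The 2 records of AGO3 were 0.14 apart, near the middle (43.7%). The members with several records thus disagreed by as much as, or more than, most genes did. In the authors' deposited table, 8 of the 2131 genes, TARBP2 included, had both records at or below -0.58, the higher TARBP2 value. That cut was taken from TARBP2 itself, so its place among the 8 was fixed. Of the 32 such genes with a mean at or below -0.5, 15 had both records below -0.5. The range between records of DICER1 was larger than its distance from 0. Records of a gene share the same arrays, so their spread is no measure of replicate error.

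**Figure D3:**
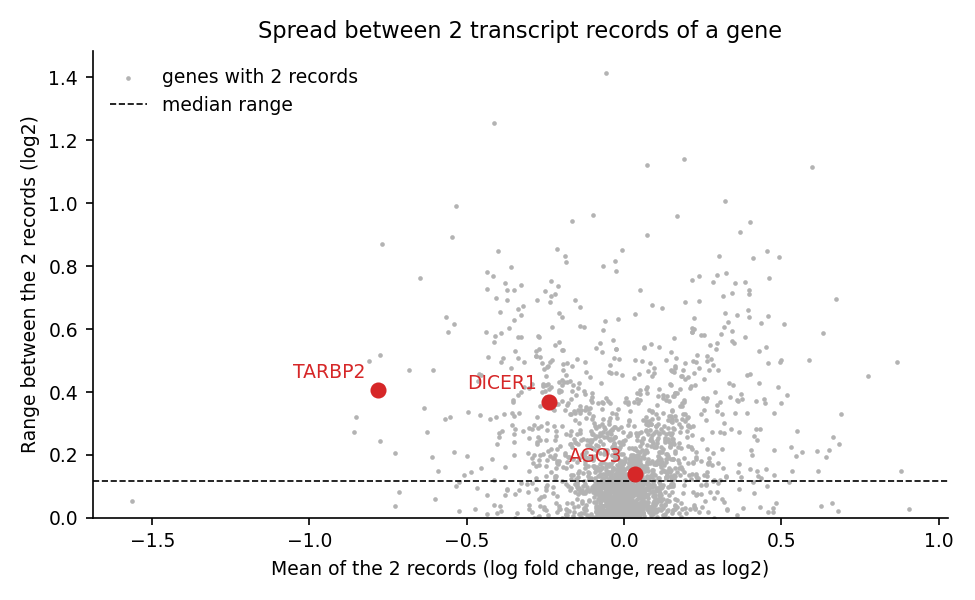
Range between the 2 records of a gene in the authors' deposited table against their mean (both log fold change, read as log2), for the 2131 genes with 2 records (grey), with TARBP2, DICER1 and AGO3 in red. The dashed line is the median range of 0.118. TARBP2 and DICER1 lie above it at 0.41 and 0.37, and AGO3 lies near it at 0.14.

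Of the deposited arrays, that of siRNA 1 stood apart from the other 3. Across 21075 detected probes, the SD of the log2 difference was 0.852 between the 2 siTARBP2 arrays, against 0.25 between the 2 siControl arrays. From controls 1 and 2 the array of siRNA 1 differed with SDs of 0.805 and 0.799, and that of siRNA 2 with SDs of 0.384 and 0.395, so siRNA 2 lay nearer to the controls than to siRNA 1. No probe passed the limma test of siTARBP2 against siControl (0% of 21075, smallest adjusted p = 0.805), and 815 had an unadjusted p under 0.05. Without the array of siRNA 2 the same test called 12035 probes and without that of siRNA 1 it called 4479, with the single remaining array taken to vary as the controls did. Against the mean of the controls, 3076 probes (14.6%) were at or below the value of TARBP2 under siRNA 1, and 444 (2.11%) under siRNA 2. By the mean of both siRNAs, 862 probes were at or below that value, whereas 121 of the 19468 named genes in the authors' deposited table were lower than TARBP2. A larger share of the probes than of the named genes thus lay that low. The probes were kept by detection, whereas no such filter was applied here to the named genes. These probe counts therefore do not rank TARBP2. Which probes measure TARBP2, and how much each siRNA contributed to its value, was not tested.

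Other genes of small RNA processing lay on both sides of 0, with shares beyond 0.2 near those of all named genes. For the list of 47 cofactors the authors' deposited table gave a median of 0.0090, with 5 genes above 0.2 (against 13.1% of all named genes), 7 below -0.2 (against 12.1%) and 35 between. With the record nearest to 0 taken for each gene, 4 lay above 0.2 and 6 below -0.2. The shares of all named genes under that choice were not computed, so these counts cannot be set against a background. The lowest was XPO1, the main export receptor for proteins and some RNAs, at -1.02, well below its relative XPO5 at 0.14 in the same table. DDX5, an RNA helicase that works with Microprocessor, stood at -0.56 in the authors' deposited table, whereas DDX17, its close paralog named here outside the rule, stood at -0.04. PTGES3, the p23 co-chaperone of HSP90, was at -0.46 in the authors' deposited table. The highest was SND1, a nuclease found in silencing complexes, at 0.52. MOV10, a helicase that binds Argonautes, followed at 0.48 and KHSRP, an RNA-binding protein that promotes processing of some precursors, at 0.30 in the authors' deposited table. The scaffold genes TNRC6A, TNRC6B and TNRC6C, whose proteins link Argonautes to deadenylases, stood at 0.12, -0.09 and 0.05 in that table, inside 0.2 on both sides. EIF2AK2, the kinase PKR on which TARBP2 and PRKRA are known to act in opposite ways, stood at 0.0090 in the authors' deposited table.

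**Figure D4:**
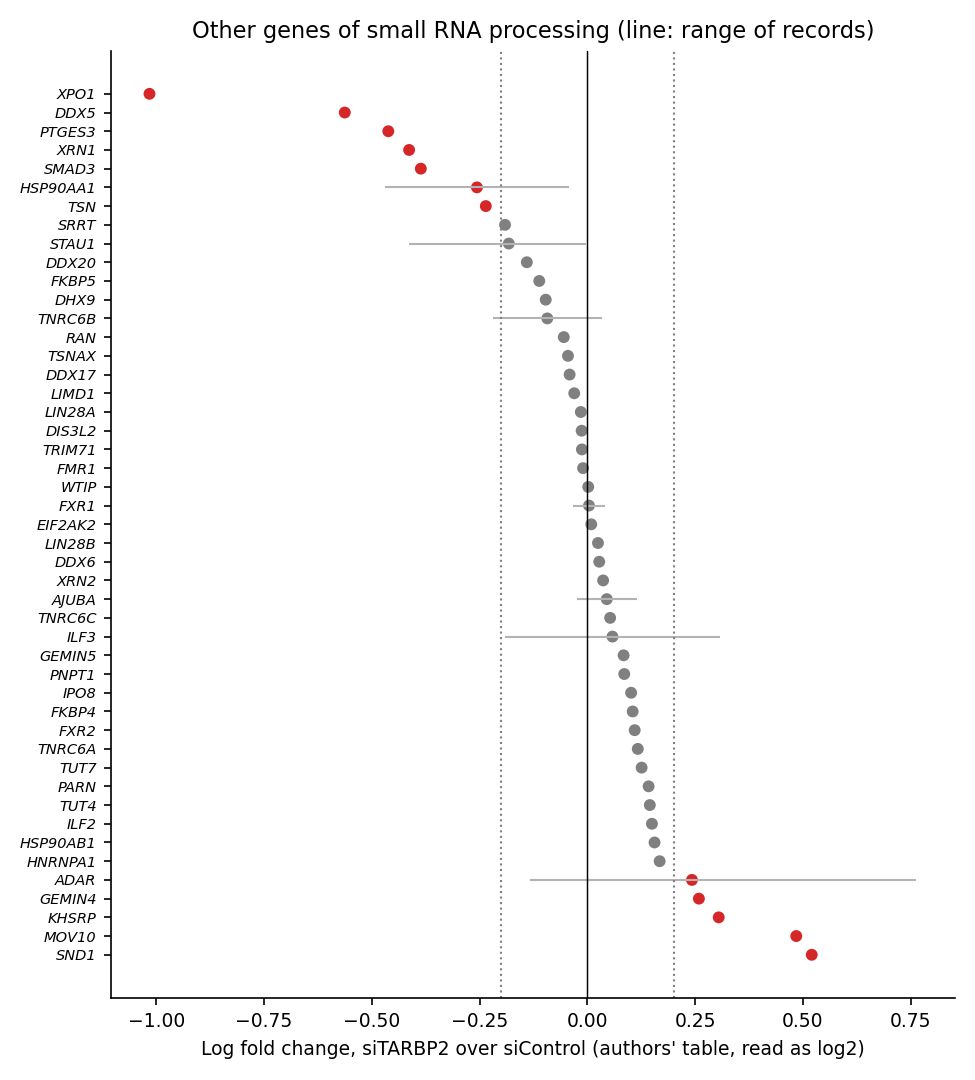
Log fold change of siTARBP2 over siControl (read as log2, from the authors' deposited table) for the 47 cofactor genes, lowest at the top. Points are gene values, red beyond 0.2 in either direction, and grey lines span the records of a gene. XPO1 at -1.02 stands apart at the low end, and SND1 at 0.52 and MOV10 at 0.48 lead the high end.

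The genes that enter the pathway as substrates were also in the table. The authors' deposited table held a record for each of 561 microRNA genes. Their median there was -0.0090, and 95% of them had values between -0.14 and 0.13. Their SD was 0.0762, against 0.245 over protein-coding genes. The authors' deposited table put only 4 above 0.2 (0.713%) and 3 below -0.2 (0.535%). TARBP2 and DICER1 lay below the central 95% of microRNA genes, XPO5 and AGO4 just above it, and the other 6 members inside it. That range is narrow, and XPO5 and AGO4 did not stand out among all named genes, of which 82.6% and 82.7% lay lower. The signal level of the microRNA records was not analysed here. The highest was MIR586 at 0.64 and the lowest MIR574 at -0.39 in that table. By position, with strand not considered, MIR574 lies within FAM114A1 and TLR6, and MIR586 within SUPT3H. The authors' deposited table placed FAM114A1 at -0.05, TLR6 at -0.0076 and SUPT3H at 0.08. Whether these genes are transcribed in the same direction as the microRNA genes was not analysed here. The mature sequences of MIR586 and MIR574, shown because these 2 genes bound the group, carry different seeds in capitals.
hsa-miR-586: uAUGCAUUguauuuuuaggucc
hsa-miR-574-5p: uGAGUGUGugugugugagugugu
hsa-miR-574-3p: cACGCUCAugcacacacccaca
Whether a record of a microRNA gene reports its primary transcript, its hairpin or the host mRNA is not given in the sources used here. This group was chosen after seeing the data.

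**Figure D5:**
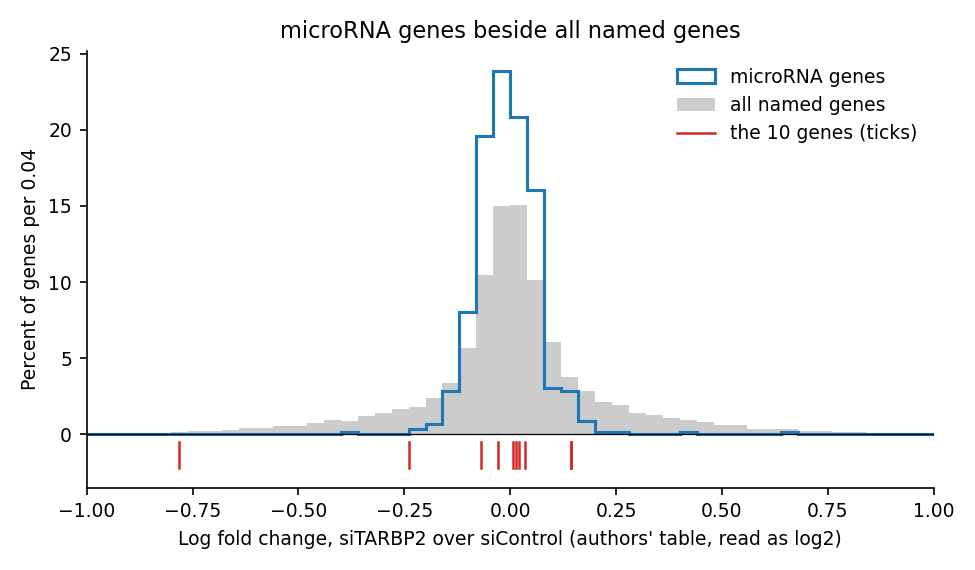
Share of genes by log fold change of siTARBP2 over siControl (read as log2, from the authors' deposited table), in steps of 0.04, for 561 microRNA genes (blue line) and all named genes (grey, values beyond 1 not drawn). Red ticks under the axis mark the 10 genes: TARBP2 at -0.78 and DICER1 at -0.24 lie left of nearly all microRNA genes.

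The genes next to, or overlapping, the 10 in the annotation were set beside them, also after seeing the data. Of 17 such genes in the authors' deposited table, 4 had a value above 0.2 (against 13.1% of all named genes) and none below -0.2 (against 12.1%), with a median of 0.04. MAP3K12, which overlaps TARBP2, stood at -0.11 and PCBP2, its neighbour on one side, at -0.02 in the authors' deposited table, so neither shared the value of -0.78. POLR1C, which overlaps XPO5, stood at 0.30, and C5orf22, beside DROSHA, at 0.27 in that table. CHRAC1, beside AGO2, was at 0.28 and TANGO2, beside DGCR8, at 0.26 in the authors' deposited table. The build behind the authors' accessions is not given in the sources used here, so no coordinates of these genes are printed.

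Markers of cell types stood on both sides of 0. Of the 8 markers of basal breast cancer cells in the authors' deposited table, 1 was above 0.2 (13.1% of all named genes) and 2 were below -0.2 (12.1%), from AXL at -0.52 to SPARC at 0.28. The 6 luminal markers ran from FOXA1 at -0.41 to the keratin gene KRT8 at 1.05 in that table, with 1 above 0.2 and 1 below -0.2. The 4 leukocyte markers used ran from LYZ at -0.0083 to CD3E at 0.06, and the 5 fibroblast and endothelial markers from DCN at -0.04 to COL1A1 at 0.28 in the authors' deposited table. These are differences and not levels, so the labelled cell type could not be checked, and their part in the values of the 10 genes was not tested.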

How the data were processed

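The authors' deposited table of comparisons holds a log fold change of siTARBP2 over siControl and a class for each of 39745 sequence accessions, per the file headers, and its values were read as log2. Among tools, the submitters' processing notes list lumi without settings. Accessions were matched without versions to RefSeq symbols (GRCh38.p14), which named 22411 records (56.4%), and a gene value was the mean over its records. A deposited table of raw probe intensity came with a detection score for each array, per the file headers, and a second deposited table held intensity values normalized by the authors. Raw intensities were processed with neqc (offset 16) in limma 3.58.1 (R 4.3.3), taking 1 minus the score as the detection p-value and keeping the 21075 of 47321 probes with p under 0.05 on at least 2 arrays. The test between groups of 2 arrays was limma's (lmFit, then eBayes with trend, two-sided, Benjamini-Hochberg at 0.05), tested first on simulated data with 200 changed probes. All simulated arrays varied as the siControl arrays did, which is less than the siTARBP2 arrays did. The simulation therefore cannot show how the test performs on these arrays. Between 19411 and 21639 probes were detected per array, and the number of arrays limits the precision. The p-values measure only the spread between these arrays, which includes the difference between the siRNAs in the siTARBP2 group and may be technical in the siControl group. The 10 genes and the lists were chosen with earlier results of these data known. Named by rule were the 10 genes, the 3 highest and 3 lowest cofactors beyond 0.2, the 2 genes next to TARBP2 by value on each side and the extremes of each marker list. One leukocyte marker is not reported here, and the range given is that of the other 4. TNRC6A, TNRC6B, TNRC6C, DDX17, EIF2AK2, the neighbours and the microRNA genes were named outside the rule.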

Additional observations from a re-analysis of the deposited data

How the results depend on the processing

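Gene values from the authors' deposited table were recomputed with the median, the farthest or the nearest record, curated or protein-coding accessions only, and centring on the median of all named genes. With the farthest or the nearest record TARBP2 stood at -0.98 or -0.58 and DICER1 at -0.42 or -0.05, moves larger than the median SD of 0.0834 between 2 records of a gene. Members with 1 record cannot move under the choice of record, and centring moved them by 0.0024. With the nearest record AGO3 stood at -0.04 and the median of the 10 genes at -0.011, both on the other side of 0 from the values reported. The count of the 10 genes below -0.2 was 1 with the nearest record in place of 2, through DICER1. The share of all named genes under that choice was not computed. At a threshold of 0.4 the count was also 1, against 5.13% of all named genes. At a threshold of 0.1, 2 of the 10 genes lay above it (AGO4 and XPO5), against 22.3%. Of the 47 cofactors, 15 lay above 0.1 (22.3% of all named genes) and 2 above 0.4 (5.26%), and 11 lay below -0.1 (20.2%) and 4 below -0.4 (5.13%). The probe test gave 0 calls with the replicate number as a block (1019 probes at an unadjusted p under 0.05), where same-numbered arrays did not deviate together (r = -0.042 across probes), and 0 with the other normalizations, filters and variance settings tried. Leaving out 1 array gave from 0 to 12035 calls: 12035 where the array of siRNA 2 was dropped, 4479 where that of siRNA 1 was, and 0 for each control. Such a fit takes the single remaining array of a group to vary as the other group did. In the authors' normalized values the SD between the siTARBP2 arrays was 0.707, against 0.159 between the siControl arrays. With 1 value per record and no array values for named genes, no result on a member has a replicate error.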
